A study of Mus musculus with 6 samples.

Results

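The Let-7 family was described in small RNA from extracellular vesicles (EVs), the membrane particles that cells release with RNA and protein inside. Its 9 members were the mature miRNA rows mmu-let-7a-5p, mmu-let-7b-5p, mmu-let-7c-5p, mmu-let-7d-5p, mmu-let-7e-5p, mmu-let-7f-5p, mmu-let-7g-5p, mmu-let-7i-5p and mmu-miR-98-5p, named from here on without the mouse prefix. They were picked by name from 902 mature miRNA rows in a table of 61949 annotated rows, by a rule that uses no measured value, although earlier results of these data were known when the family was chosen. The study sequenced EVs of primary cortical astrocytes (astrocyte EVs, 3 libraries) and EVs of primary neural stem cells of the subventricular zone (NSC EVs, 3 libraries). All cells came from CD1 mice, and no treatment, transgene or other group was part of these 6 libraries. The study's methods describe astrocytes from dorsal cortices of pups at postnatal day 4, shaken to remove microglia and oligodendrocytes, and then kept with 2% fetal bovine serum. The labels call the NSC libraries neonatal, and the series record names serial centrifugation for both EV types. No label ties the 3 replicates of a group to different cultures or mice. Every p-value therefore reflects the spread among these samples alone, and that spread may be technical. For library preparation and sequencing the study's methods give an Illumina kit and a HiSeq and the series record gives CleanTag and NextSeq, and which is right is unknown here.

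Let-7 miRNAs are made from hairpin precursors by the nucleases Drosha and Dicer, and the arm on the 5′ side (5p) is the one that Argonaute proteins usually keep. They repress mRNAs that pair with their seed, the bases just inside the 5′ end, and in many animals their rise accompanies the loss of stem cell traits and the start of differentiation. Lin28 proteins block the maturation of most members in stem cells. In the brain the family is known to restrain neural stem cell proliferation, and let-7 RNA outside cells is known as an activator of Toll-like receptor signaling in neurons and microglia.

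The mature sequences are given here because the members differ by so few bases that their counts depend on single mismatches. Each is written 5′ to 3′ from RefSeq on GRCm38.p6, with the seed (bases 2 to 8) in capitals.
let-7a-5p: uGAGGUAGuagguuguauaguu
let-7b-5p: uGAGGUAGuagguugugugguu
let-7c-5p: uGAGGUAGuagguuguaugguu
let-7d-5p: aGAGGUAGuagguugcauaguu
let-7e-5p: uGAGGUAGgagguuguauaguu
let-7f-5p: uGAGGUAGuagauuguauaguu
let-7g-5p: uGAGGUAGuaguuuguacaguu
let-7i-5p: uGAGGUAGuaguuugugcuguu
miR-98-5p: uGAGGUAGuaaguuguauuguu

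All 9 had 22 bases and the same seed, so they form 1 seed group. Counted from 1 at the 5′ end and with the let-7a-5p base first, let-7c-5p differed from let-7a-5p by A19G, let-7e-5p by U9G and let-7f-5p by G12A. Let-7b-5p differed by A17G and A19G, let-7d-5p by U1A and U16C, let-7g-5p by G12U and U18C, and miR-98-5p by G11A and A19U. Let-7i-5p stood farthest from let-7a-5p, with G12U, A17G, U18C and A19U. Of the 36 pairs of members, 4 differed by 1 base (let-7a-5p with let-7c-5p, let-7e-5p and let-7f-5p, and let-7b-5p with let-7c-5p), and 10 differed by 2 bases. The most distant pair, let-7d-5p and let-7i-5p, differed by 6 bases. The number of mismatches that the authors allowed is unknown here, so reads of neighbors at 1 base may be shared between them. Of the 782 mature rows with a RefSeq sequence, 10 held this seed. The row beyond the 9 members is miR-1961.

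The 9 members come from 12 hairpins at 8 genomic places (mm10, the build of the count table). Chromosome 13 holds let-7a-1, let-7f-1 and let-7d within exons of the long noncoding RNA 6720427I07Rik on the minus strand, with gaps of 261 bases between let-7a-1 and let-7f-1 and 1714 bases between let-7f-1 and let-7d. Chromosome 15 holds let-7c-2 and let-7b in an exon of Lncppara, 621 bases apart. Chromosome X holds let-7f-2 and mir-98 in an intron of Huwe1, which codes for a ubiquitin ligase, 785 bases apart. At 3 further places a single member lies beside miRNAs of the miR-99, miR-100 and miR-125 families. These are let-7e in an intron of Spaca6 on chromosome 17, let-7c-1 in an intron of Mir99ahg on chromosome 16, and let-7a-2 in introns of 3110039I08Rik and Gm49317 on chromosome 9. Let-7g in an intron of Wdr82 on chromosome 9 and let-7i in an exon of the processed pseudogene D630033A02Rik on chromosome 10 stand alone. The mature rows of the members that the EV types separated most are placed at chr9:106178846-106178867 on the plus strand for let-7g-5p and at chr17:17830366-17830387 on the plus strand for let-7e-5p.

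The counts in the table summed to between 72359982 and 111851274 per astrocyte EV library and between 44620985 and 50898531 per NSC EV library. These sums are not read depths, since a read can fall in several rows, such as a mature row, its hairpin and the gene around it. Mature miRNA rows held 182075 to 399211 counts in astrocyte EV libraries and 177093 to 259560 in NSC EV libraries, and of these the family held 72205 to 185884 in astrocyte EVs, against 92210 to 100736 in NSC EVs. The lowest count of any member in any library was 288. The widest 95% Wilson interval of a share within the family was 0.727 percentage points, for counting error only. Astrocyte EV replicate 3 had the most mature counts and stood apart from replicates 1 and 2 in several members, as given with each. It also stood apart outside the family. MiR-9-5p stood at 1245, 1955 and 48244 per 1000000 scaled mature counts in astrocyte EV replicates 1, 2 and 3. MiR-143-3p stood at 51132, 54091 and 3840. Listed red blood cell miRNAs took 4.43% to 16.1% of mature counts in astrocyte EVs, against 0.205% to 0.382% in NSC EVs. The rows of miR-486a-5p and miR-486b-5p, which held most of these counts, were near-equal in every library. They may hold the same reads, so these shares may be too high. With those 7 red blood cell rows left out of the test, the same number of members passed in each direction (2 higher, 2 lower). MiR-122-5p, abundant in liver and serum, took 0.187% to 0.556% in astrocyte EVs, against 0.189% to 0.234% in NSC EVs. The marker genes that follow were read from rows that span whole genes with introns and hold short RNA fragments, not mRNA levels. Fragments of 8 astrocyte marker genes summed to 15.7 to 32.7 CPM (counts per 1000000 counts of a library) in astrocyte EVs and 34.7 to 58.8 CPM in NSC EVs. Slc1a2, a glutamate transporter, held between 43.0% and 61.7% of this sum in astrocyte EVs, against 47.2% to 80.4% in NSC EVs. Over the list 5 of the 8 log2 fold changes were above 0, with a median of 0.15, and 1 gene passed, Gfap, an intermediate filament protein, as higher in astrocyte EVs (1.85, edgeR adjusted p = 0.0263). That call was kept in 2 of the 6 fits that leave out a library (adjusted p up to 0.0891). The 8 NSC marker genes summed to 10.1 to 29.3 CPM in astrocyte EVs and 20.8 to 31.3 CPM in NSC EVs. Of the 7 tested, 1 passed, Fabp7, as lower in astrocyte EVs (-3.09, edgeR adjusted p = 0.0304). Fabp7 had 1, 8 and 10 counts in astrocyte EVs and 50, 19 and 46 counts in NSC EVs. The median of the NSC list was 0.18, and none of the 16 markers was at 0 in all libraries. Among marker lists of other cells, 5 mesenchymal genes summed to 61.2 to 118 CPM in astrocyte EVs and 676 to 928 CPM in NSC EVs. Pdgfrb alone carried that gap (-2.49, edgeR adjusted p = 0.0370), and the other genes of the list summed to at most 14.3 CPM in any library. Col1a2 passed in the other direction (2.54, edgeR adjusted p = 0.0237), and the list's median was -0.013. The 5 neuronal genes summed to 67.8 to 149 CPM in astrocyte EVs and 241 to 384 CPM in NSC EVs, mostly through Rbfox3 (-1.50, edgeR adjusted p = 0.0409), and their median was 0.035. With each library left out, the calls of Col1a2, Pdgfrb and Rbfox3 were kept in 2, 1 and 1 of 6 fits. Of the listed microglial, oligodendrocyte lineage and red blood cell genes that were tested, 0 passed. The part of these other signals in the members' values was not tested. Leaving out the red blood cell rows alters the scaling and the adjustment, but any Let-7 reads from such cells stay in the members' rows. In bulk EV RNA fewer vesicles of a cell type cannot be told apart from less RNA per vesicle.

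The family was dominated by the same pair of members in both EV types, and 7 smaller members made up the remainder. Let-7c-5p ranked first of all mature miRNAs in all 6 libraries. It held 46.2%, 45.7% and 45.7% of the family's counts in astrocyte EV replicates 1, 2 and 3, against 50.1%, 56.1% and 58.4% in NSC EV replicates 1, 2 and 3. Let-7b-5p was second in the family in every library, with 24.6%, 23.1% and 33.5% in astrocyte EVs and 19.4%, 17.5% and 19.9% in NSC EVs. The share of let-7c-5p was lower in every astrocyte EV library than in any NSC EV library, and that of let-7b-5p was higher. Summed, the pair took 68.8% to 79.2% of the family in astrocyte EVs, against 69.5% to 78.3% in NSC EVs, so the groups overlapped in the sum and separated in how it was divided.

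**Figure D1:**
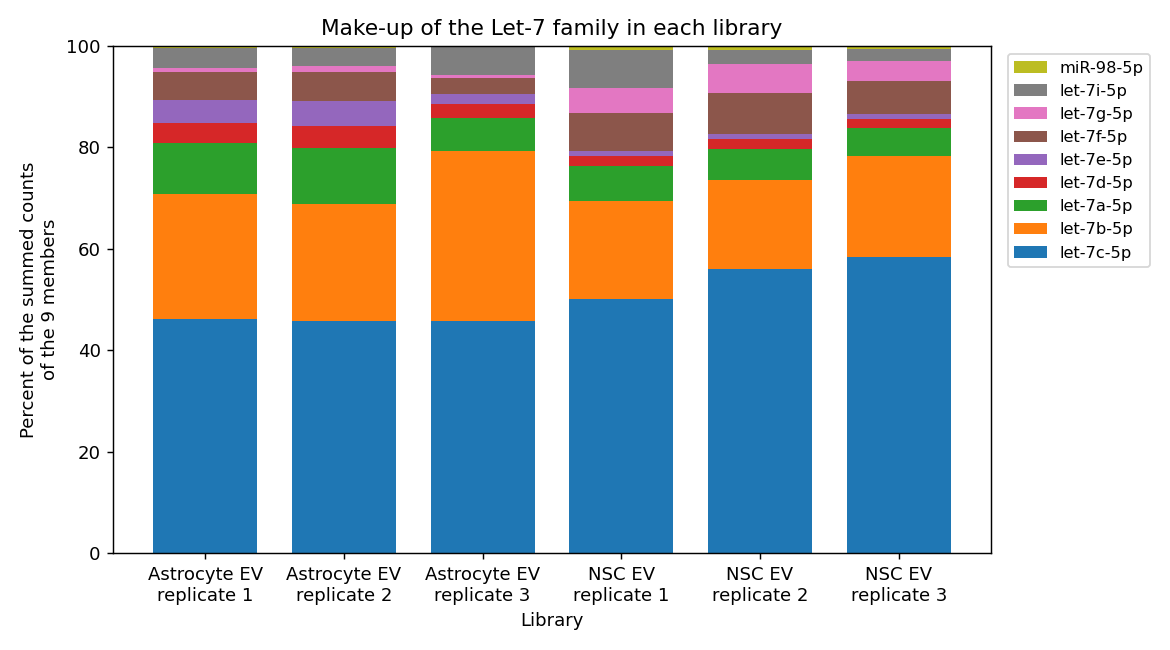
Each bar is 1 library and stacks the percent of the summed counts of the 9 Let-7 members that each member took. Let-7c-5p and let-7b-5p fill 68.8% to 79.2% of the astrocyte EV bars and 69.5% to 78.3% of the NSC EV bars, and the let-7g-5p band is 0.487% to 1.08% in astrocyte EVs, against 3.90% to 5.80% in NSC EVs.

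Below this pair the order of the members differed between the EV types. In astrocyte EVs let-7a-5p came next with 9.21% ± 2.31 of the family (SD, n = 3), above let-7f-5p with 4.84% ± 1.39, let-7i-5p with 4.37% ± 1.07, and let-7e-5p and let-7d-5p with 3.72% each (SD 1.63 and 0.861). The ranges of those 4 neighbors overlapped, so their order is not resolved. Let-7g-5p (0.808% ± 0.298) and miR-98-5p (0.347% ± 0.0927) stood below them in every astrocyte EV library. In NSC EVs let-7f-5p came next with 7.36% ± 0.742 and let-7a-5p followed with 6.13% ± 0.681, then let-7g-5p with 4.87% ± 0.949 and let-7i-5p with 4.28% ± 2.82. These neighbors overlapped in range, although let-7f-5p exceeded let-7a-5p, and let-7a-5p exceeded let-7g-5p, in 3 of 3 NSC EV libraries. Let-7d-5p (1.85% ± 0.121), let-7e-5p (1.03% ± 0.0436) and miR-98-5p (0.651% ± 0.109) closed the order in each of the 3. The library rank of let-7g-5p among all mature miRNAs was 42, 37 and 42 in astrocyte EVs and 10, 8 and 9 in NSC EVs. That of let-7e-5p was 14, 13 and 18 in astrocyte EVs and 35, 25 and 25 in NSC EVs.

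The shares of 7 of the 9 members did not overlap between the EV types. In CPM, a different measure, 6 of the 9 members did not overlap, near the 64.8% of all 256 mature miRNAs tested. Let-7b-5p, let-7d-5p and let-7e-5p took more of the family in every astrocyte EV library, and let-7c-5p, let-7f-5p, let-7g-5p and miR-98-5p took less. Each of the 7 gave p = 0.1 in an exact two-sided permutation test, the smallest p that 3 libraries against 3 allow, so none can reach 0.05 by this test. The difference was -9.01 percentage points for let-7c-5p, 8.16 points for let-7b-5p and -4.06 points for let-7g-5p. Let-7a-5p overlapped (exact p = 0.2) because astrocyte EV replicate 3 (6.62%) fell below NSC EV replicate 1 (6.83%). Let-7i-5p overlapped as well (exact p = 1), with 3.95%, 3.57% and 5.58% in astrocyte EVs and 7.53%, 2.80% and 2.50% in NSC EVs. Shares within 1 family sum to a whole, so a larger share of 1 member lowers the others.

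Levels relative to all mature miRNAs were compared on CPM scaled by TMM, a method that sets library sizes so that most miRNAs do not shift, with edgeR's quasi-likelihood test. Of all 256 mature miRNAs tested, 48.0% passed at an adjusted p under 0.05, 22.3% as higher and 25.8% as lower in astrocyte EVs. All 9 members were tested, and 4 of them (44.4%) passed, close to that background. Higher in astrocyte EVs were let-7d-5p and let-7e-5p, lower were miR-98-5p and let-7g-5p, and the remaining 5 members missed the threshold. The 57 higher and 66 lower calls over all miRNAs became 32 and 96 when library sizes came from all non-hairpin rows without TMM, and then 0 members were higher and 3 lower (let-7f-5p, let-7g-5p and miR-98-5p). The CPM of 6 of the 9 members did not overlap between the groups, against 64.8% of all tested miRNAs. The median log2 fold change (astrocyte EVs minus NSC EVs) was 0.24 over the 9 members and -0.06 over all tested miRNAs. The members thus ran in both directions about a middle close to that of all miRNAs.

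**Figure D2:**
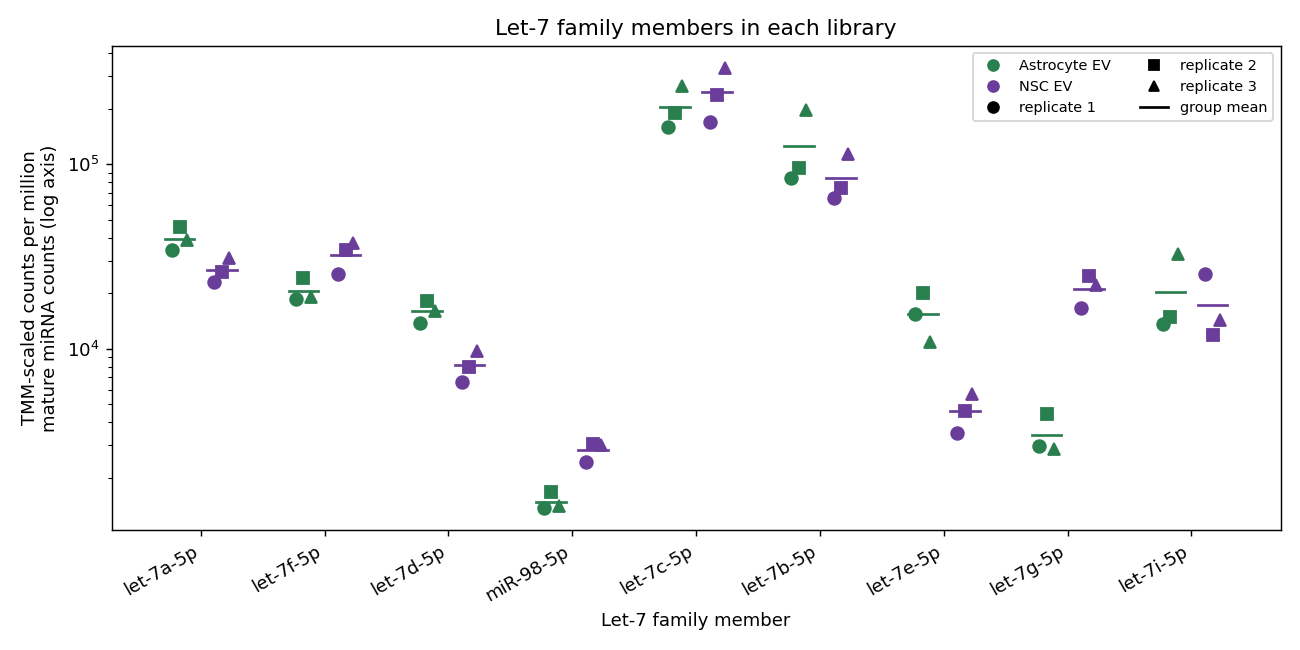
TMM-scaled CPM of mature miRNA counts on a log axis for each member, with 1 point per library, astrocyte EVs left of NSC EVs, and a line at each group mean. Let-7e-5p and let-7d-5p lie higher, and let-7g-5p and miR-98-5p lower, in all 3 astrocyte EV libraries than in any NSC EV library, while let-7c-5p, let-7b-5p and let-7i-5p overlap.

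Let-7g-5p showed the widest separation of the family. It had 623, 883 and 906 counts in astrocyte EVs, against 4942, 5488 and 3595 counts in NSC EVs. All 3 NSC EV libraries were far above all astrocyte EV libraries, although astrocyte EV replicate 3 had the most mature counts of the 6. Scaled, let-7g-5p stood at 3420 ± 893 CPM in astrocyte EVs and 21157 ± 4150 CPM in NSC EVs (SD, n = 3 each), with a log2 difference of -2.63 (SE 0.36, edgeR adjusted p = 0.00207) or 6.19-fold lower in astrocyte EVs. The call held in every alternative fit, and without each library in turn the log2 fold change ran from -2.79 to -2.44. Set against let-7i-5p, which shares its G12U and U18C changes, let-7g-5p counts were 0.219, 0.301 and 0.0873 times those of let-7i-5p in astrocyte EVs and 0.651, 2.07 and 1.56 times in NSC EVs.

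Let-7g lies inside Wdr82, which codes for a subunit of histone methyltransferase complexes, and the row of this host gene gave a second view of the locus. The Wdr82 row, which spans introns, had 735, 1022 and 1673 counts in astrocyte EVs and 5007, 5577 and 3649 counts in NSC EVs. Counts of the let-7g hairpin made up 84.9%, 87.4% and 54.2% of them in astrocyte EVs and 99.0%, 98.7% and 98.8% in NSC EVs. What was left of the host row, 111, 129 and 767 counts in astrocyte EVs and 50, 75 and 43 counts in NSC EVs, was small in all libraries but astrocyte EV replicate 3. The astrocyte EV libraries also had the larger table totals, and no direction is read from these remainders. The gap between the groups in the Wdr82 row lay in let-7g hairpin counts.

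Let-7e-5p was the member with the largest rise in astrocyte EVs. It had 3234, 3976 and 3442 counts in astrocyte EVs, against 1038, 1020 and 913 counts in NSC EVs. The 3 NSC EV counts lay close together, and the lowest astrocyte EV count was above all of them. Scaled, it stood at 15410 ± 4600 CPM in astrocyte EVs and 4571 ± 1084 CPM in NSC EVs (SD, n = 3 each), with a log2 difference of 1.75 (SE 0.37, edgeR adjusted p = 0.00695) or 3.37-fold. Within the family its share was 4.48%, 4.84% and 1.85% in astrocyte EVs and 1.03%, 1.08% and 0.990% in NSC EVs, so astrocyte EV replicate 3 was the nearest to the NSC EVs. The call was lost with library sizes taken from all non-hairpin rows (0.98, edgeR adjusted p = 0.112).

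Let-7e sits with mir-99b, 94 bases away, and mir-125a, 367 bases away, in 1 intron of Spaca6. MiR-99b-5p had 2441, 2558 and 3049 counts in astrocyte EVs and 731, 575 and 535 counts in NSC EVs, so its log2 difference was 2.03 (SE 0.31, edgeR adjusted p = 0.00321). Let-7e-5p counts were 1.32, 1.55 and 1.13 times those of miR-99b-5p in astrocyte EVs and 1.42, 1.77 and 1.71 times in NSC EVs, and these ratios overlapped. MiR-125a-5p, from the remaining hairpin of the intron, had 290, 397 and 209 counts in astrocyte EVs and 193, 232 and 189 counts in NSC EVs (0.50, SE 0.48, edgeR adjusted p = 0.427) and did not pass. The opposite arm of the same hairpin, miR-125a-3p, was higher in astrocyte EVs, with 100, 125 and 201 counts against 37, 18 and 14 counts in NSC EVs (2.56, SE 0.42, edgeR adjusted p = 0.00376). MiR-99b-3p, the opposite arm of mir-99b, had 12, 16 and 81 counts in astrocyte EVs and 88, 56 and 27 counts in NSC EVs and did not pass (-0.85, SE 0.66, edgeR adjusted p = 0.322), but passed as lower (-1.99, adjusted p = 0.0303) without astrocyte EV replicate 3. So let-7e-5p, miR-99b-5p and miR-125a-3p were higher in astrocyte EVs, while miR-99b-3p and miR-125a-5p did not pass, and the differences between arms were not tested.

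The other places shared with these families gave mixed values. MiR-100-5p, 5.21 kb from let-7a-2 on chromosome 9, had 732, 713 and 781 counts in astrocyte EVs and 315, 275 and 181 counts in NSC EVs (1.48, SE 0.31, edgeR adjusted p = 0.00695). MiR-99a-5p, 656 bases from let-7c-1 on chromosome 16, did not pass (0.20, SE 0.29, edgeR adjusted p = 0.595). MiR-125b-5p can come from either place, 45.1 kb from let-7a-2 and 46.5 kb from let-7c-1, and was lower in astrocyte EVs, with 96, 95 and 80 counts against 194, 448 and 211 counts in NSC EVs (-1.74, SE 0.52, edgeR adjusted p = 0.0280). Its call was kept in 2 of the 6 fits that leave out a library. The opposite arms of its hairpins, each from a single place, were higher. MiR-125b-1-3p, from the chromosome 9 place, had 598, 650 and 1060 counts in astrocyte EVs and 548, 239 and 237 counts in NSC EVs (1.11, SE 0.32, edgeR adjusted p = 0.0263). MiR-125b-2-3p, from the chromosome 16 place, had 270, 205 and 351 counts in astrocyte EVs and 149, 88 and 78 counts in NSC EVs (1.31, SE 0.33, edgeR adjusted p = 0.0147). With a library left out, miR-125b-1-3p passed in 2 and miR-125b-2-3p in 3 of 6 fits. MiR-99a-3p (32 counts in all) and miR-100-3p (17 counts in all) were too few to test. So 2 of the 5 listed partners, all 5p arms, were higher, 1 was lower and 2 did not pass. Of the 4 tested 3p arms of the same hairpins, added after their values were seen, 3 were higher, 0 were lower and 1 did not pass. None of these 4 passed when the library size was summed over every non-hairpin row. Over all 256 mature miRNAs tested, 22.3% were higher and 25.8% were lower. With so few partners, their counts of calls are not read as a trait of these places. Let-7a-5p and let-7c-5p, whose hairpins lie beside miR-99a, miR-100 and miR-125b, did not pass.

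**Figure D3:**
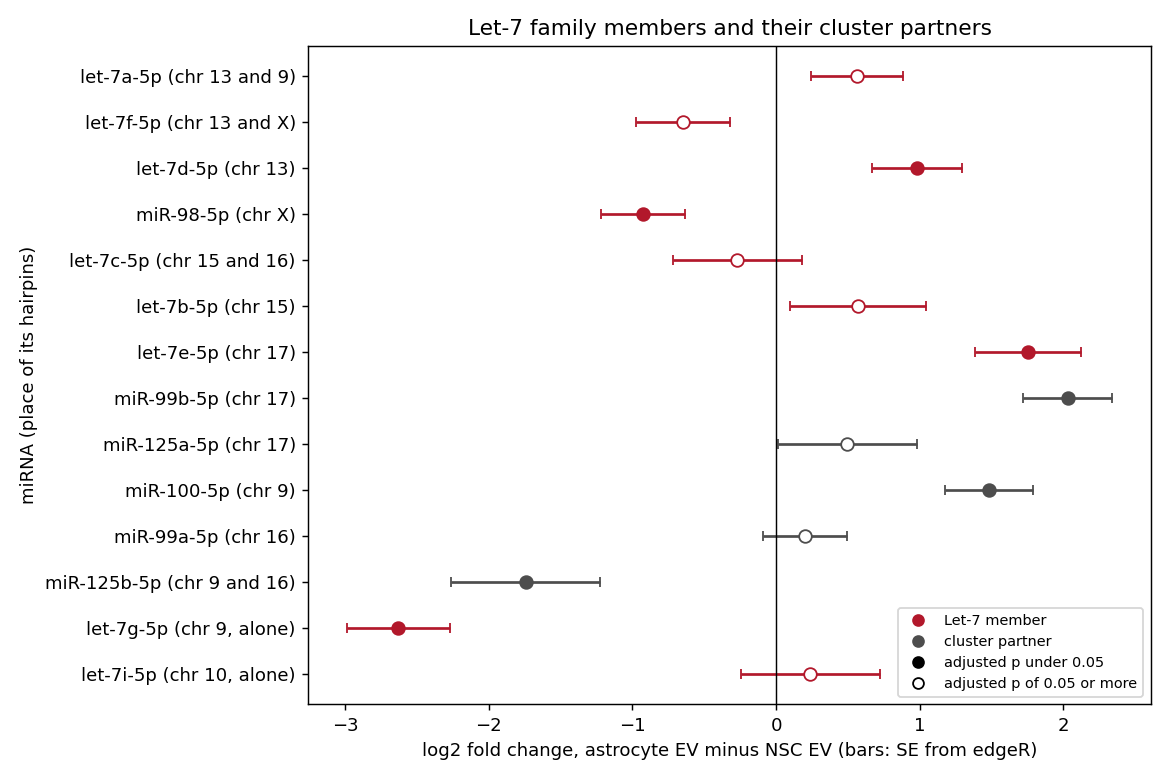
Log2 fold change between astrocyte EVs and NSC EVs for the 9 Let-7 members and the 5p arms of 5 cluster partners, with bars for the SE from edgeR and filled points for an adjusted p under 0.05. Let-7e-5p (1.75) and miR-99b-5p (2.03) of chromosome 17 lie together on the right, let-7g-5p (-2.63) lies farthest to the left, and let-7f-5p (-0.65) and let-7d-5p (0.98), which share a cluster on chromosome 13, lie on opposite sides of 0.

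The chromosome 13 cluster held members with fold changes of opposite sign, of which only let-7d-5p passed the test. Let-7d-5p had 2909, 3605 and 5113 counts in astrocyte EVs, against 1958, 1782 and 1577 counts in NSC EVs. Let-7f-5p had 3939, 4781 and 6037 counts in astrocyte EVs, against 7567, 7595 and 6048 counts in NSC EVs. Let-7a-5p had 7201, 9074 and 12300 counts in astrocyte EVs, against 6883, 5776 and 5046 counts in NSC EVs. These raw counts are not scaled for library size, and let-7f-5p alone of the 3 members had fewer of them in astrocyte EVs. Its closest counts were 6037 in astrocyte EV replicate 3 and 6048 in NSC EV replicate 3. Those libraries had 399211 and 177093 mature counts.

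On the TMM scale let-7d-5p stood at 16025 ± 2172 CPM in astrocyte EVs and 8110 ± 1598 CPM in NSC EVs (SD, n = 3 each), with a log2 difference of 0.98 (SE 0.31, edgeR adjusted p = 0.0338) or 1.98-fold. Its call rests on the choice of setting: among others, edgeR lost it when astrocyte EV replicate 2 (adjusted p = 0.0769), NSC EV replicate 2 (0.0739) or NSC EV replicate 3 (0.0686) was dropped. Let-7a-5p (0.56, SE 0.32, edgeR adjusted p = 0.183) and let-7f-5p (-0.65, SE 0.33, edgeR adjusted p = 0.140) did not pass, although their CPM did not overlap. With DESeq2 both passed, let-7a-5p at 0.52 (adjusted p = 0.0463) and let-7f-5p at -0.69 (adjusted p = 0.0221).

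Ratios of members within a library do not depend on how libraries are scaled, and they separated the EV types in all 5 pairs of members that share a cluster. Ratios also separated the EV types in 25 of all 36 pairs of members (69.4%) and in 57.6% of 20100 pairs of tested miRNAs with a count in every library. The let-7d-5p to let-7f-5p ratio of counts was 0.739, 0.754 and 0.847 in astrocyte EVs, against 0.259, 0.235 and 0.261 in NSC EVs. On the log2 scale it averaged -0.36 ± 0.107 in astrocyte EVs and -1.99 ± 0.0849 in NSC EVs (SD, n = 3 each), a difference of 1.63 (exact two-sided permutation p = 0.1). The gap between the groups was many times the spread within either. The let-7a-5p to let-7f-5p ratio was 1.83, 1.90 and 2.04 in astrocyte EVs and 0.910, 0.760 and 0.834 in NSC EVs, a difference of 1.20 in log2 ratio (exact p = 0.1). Let-7a-5p therefore outnumbered let-7f-5p in every astrocyte EV library and was outnumbered by it in every NSC EV library. The let-7d-5p to let-7a-5p ratio moved less, with 0.404, 0.397 and 0.416 in astrocyte EVs and 0.284, 0.309 and 0.313 in NSC EVs, a log2 difference of 0.43 (exact p = 0.1). Let-7a-5p and let-7f-5p each have a further hairpin on another chromosome and let-7d-5p has none, so these ratios mix places.

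On chromosome 15 the let-7b-5p to let-7c-5p ratio was 0.533, 0.506 and 0.733 in astrocyte EVs and 0.387, 0.313 and 0.340 in NSC EVs. The log2 difference was 0.76 (exact p = 0.1), and it was 0.59 without astrocyte EV replicate 3, the highest of the libraries. On the X chromosome the miR-98-5p to let-7f-5p ratio was 0.0731, 0.0692 and 0.0740 in astrocyte EVs and 0.0953, 0.0889 and 0.0800 in NSC EVs, a log2 difference of -0.28 (exact p = 0.1). Of the 5 log2 ratios this was the one that differed least. Each exact p is the smallest that the design allows, and adjusted over the 5 pairs by Benjamini-Hochberg it stays at 0.1.

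**Figure D4:**
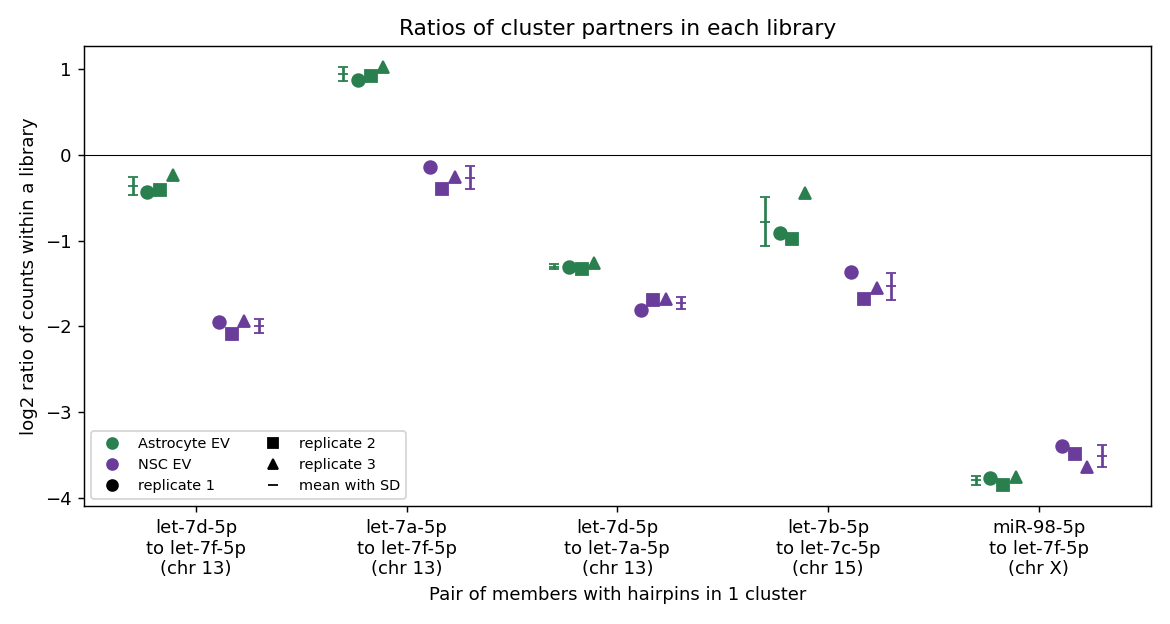
Log2 ratio of the counts of both members of a pair within each library, for the 5 pairs whose hairpins share a cluster, with points for libraries and bars for the mean with SD of 3 libraries, astrocyte EVs left of NSC EVs. The groups do not overlap in any pair, and the widest gap is in let-7d-5p to let-7f-5p, at -0.36 in astrocyte EVs and -1.99 in NSC EVs.

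MiR-98-5p, the least abundant member, had 288, 331 and 447 counts in astrocyte EVs, against 721, 675 and 484 counts in NSC EVs. All NSC EV counts were higher, with replicate 3 of each group closest to the other group. Scaled, it stood at 1481 ± 163 CPM in astrocyte EVs and 2815 ± 345 CPM in NSC EVs (SD, n = 3 each), with a log2 difference of -0.93 (SE 0.29, edgeR adjusted p = 0.0327) or 1.90-fold lower. Leaving out any library other than NSC EV replicate 2 ended the call, with log2 fold changes of -1.02 to -0.77 and adjusted p-values of 0.0493 to 0.153 over the 6 fits. MiR-98 and let-7f-2 share an intron of Huwe1, and let-7f-5p, the other product of that intron, also had fewer counts in astrocyte EVs. The Huwe1 row had 4612, 5502 and 7788 counts in astrocyte EVs and 8803, 8690 and 6950 counts in NSC EVs, of which both hairpins together made up 83.3% to 93.1% in astrocyte EVs, against 94.1% to 95.2% in NSC EVs.

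The most abundant members and let-7i-5p did not pass the test. Let-7c-5p had 33362, 37544 and 84950 counts in astrocyte EVs, against 50505, 53091 and 53895 counts in NSC EVs. Its log2 fold change of -0.27 (SE 0.45, edgeR adjusted p = 0.634) was within the spread between libraries, was 0.00 without astrocyte EV replicate 1 and 0.04 without NSC EV replicate 3, and passed as lower without astrocyte EV replicate 3 (-0.58, adjusted p = 0.0495). Let-7b-5p had 17798, 18999 and 62308 counts in astrocyte EVs, against 19534, 16609 and 18344 counts in NSC EVs. Its log2 fold change of 0.57 (SE 0.47, edgeR adjusted p = 0.356) rested on astrocyte EV replicate 3, without which it was 0.02. Let-7i-5p had 2851, 2933 and 10381 counts in astrocyte EVs, against 7588, 2656 and 2308 counts in NSC EVs. In each group 1 library stood far above the others for let-7i-5p, astrocyte EV replicate 3 and NSC EV replicate 1. Its log2 fold change was 0.24 (SE 0.48, edgeR adjusted p = 0.695), -0.47 without astrocyte EV replicate 3 and 0.95 without NSC EV replicate 1.

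Sequence and direction can be set side by side over the 9 members, as a description chosen after the values were seen. The 4 members with a substitution at position 11 or 12 (let-7f-5p, let-7g-5p, let-7i-5p and miR-98-5p) had log2 fold changes of -2.63 to 0.24, and the other 5 had -0.27 to 1.75, so the ranges overlapped. Together those 4 took 10.7%, 10.9% and 9.56% of the family in astrocyte EVs and 20.7%, 17.3% and 13.5% in NSC EVs. Across the 9 members the correlation of GC content with log2 fold change was 0.54 (Pearson's r), and across the 223 tested miRNAs with a sequence it was 0.13. Members share libraries and most of their bases, so neither value carries a test.

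Counts at the hairpins bear on which place a member with 2 hairpins came from, and they could not settle it. Let-7a-5p, let-7c-5p and let-7f-5p have 2 hairpins each with the same mature sequence. Counts of let-7a-2, let-7c-1 and let-7f-2 equaled the mature rows to within 2, 4 and 10 counts in every library, although the table places those mature rows at let-7a-1, let-7c-2 and let-7f-1. Let-7a-1 exceeded the mature row by 22 to 164 counts and let-7c-2 by 533 to 1438 counts, while let-7f-1 fell short of it by 205 to 289 counts. The bulk of each member's counts thus recurred at both of its places, and only the remainders differ between them. Let-7c-2 exceeded let-7c-1 by 788, 786 and 533 counts in astrocyte EVs and 1149, 1101 and 1434 counts in NSC EVs, which is 0.627% to 2.36% and 2.07% to 2.66% of let-7c-5p. The passenger arm of let-7c-2, with 37, 5 and 22 counts in astrocyte EVs and 8, 1 and 4 counts in NSC EVs, covered only a small part of that excess. For let-7i-5p and miR-98-5p hairpin and mature counts were equal in every library. For let-7d the hairpin exceeded let-7d-5p by 102, 151 and 82 counts in astrocyte EVs and 97, 43 and 40 counts in NSC EVs, which are the counts of its passenger arm.

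The passenger arms (3p), which are usually degraded after the guide strand is loaded, were scarce in both EV types. Over the 6 libraries the 9 passenger rows held 758 counts beside 627853 counts of the guide arms, or 0.121% of both arms. No passenger row covers let-7i, miR-98 or let-7a-2, although the guide counts include these members, so this is not an arm share of every member. Let-7d-3p was the exception to this scarcity, at 2.95% of both arms. It had 102, 151 and 82 counts in astrocyte EVs and 97, 43 and 40 counts in NSC EVs. It was the only passenger row with enough counts to be tested, and its log2 fold change was 0.97 (SE 0.51, edgeR adjusted p = 0.154), beside 0.98 for let-7d-5p. Let-7a-1-3p had 43, 4 and 25 counts in astrocyte EVs and 12, 4 and 0 counts in NSC EVs. Its sequence is shown because RefSeq gives the same 22 bases for the passenger arm of let-7c-2, so these rows may hold the same reads.
let-7a-1-3p and let-7c-2-3p: cuauacaaucuacugucuuucc
Let-7g-3p had 0, 0 and 0 counts in astrocyte EVs and 1, 7 and 3 counts in NSC EVs. At the arm share of the NSC EVs the 2412 let-7g-5p counts of the astrocyte EVs would come with 1.89 counts of let-7g-3p, so a difference in the arm share was not detectable at this depth. Of the other passenger rows, let-7b-3p had 21 counts, let-7f-2-3p 21 and let-7e-3p 15 over the 6 libraries, and 2 rows had fewer than 10.

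The miRNAs outside the family with the most similar pattern were ranked by the root mean square difference of centred log2(CPM + 1) over the 6 libraries, among 189 miRNAs with a mean of at least 100 CPM. MiR-26a-5p (0.251), miR-192-5p (0.255) and miR-30e-5p (0.300) were closest to the summed family. MiR-31-5p (0.193), miR-99b-5p (0.222) and miR-100-5p (0.255) were closest to let-7e-5p. MiR-99b-5p shares the chromosome 17 place of let-7e, while miR-100-5p comes from the chromosome 9 place of let-7a-2. The measure includes the difference between the EV types, so miRNAs with a similar fold change rank close. MiR-6238 (0.316), miR-181a-1-3p (0.365) and miR-1839-5p (0.365) were closest to let-7g-5p. MiR-26b-5p (0.133) was closest to miR-98-5p, followed by miR-30a-3p (0.285) and miR-132-3p (0.290). Let-7d-5p had miR-411-5p (0.269), miR-532-5p (0.291) and miR-1981-5p (0.295) nearest to it.

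Fragments of mRNAs for Let-7 processing factors and known Let-7 targets were read from the gene rows of the same table, which span whole genes with introns and hold short RNA fragments, not mRNA levels. Of 41308 non-hairpin rows tested, 9.78% passed, 5.54% as higher and 4.24% as lower in astrocyte EVs. Unadjusted p-values under 0.05 were common over all rows. An alternative fit, with a minimum of 10 counts as its filter, had 6133 higher and 5981 lower of 39136 rows by that measure. The matching counts of the main fit of 41308 rows are not given here, so this background is a rough one. Of 22 processing factors listed, 21 matched a row and were tested, and edgeR called 0 higher and 0 lower, with 5 higher and 0 lower at an unadjusted p under 0.05. Their median log2 fold change was 0.07, beside -0.04 over all rows tested. Drosha, the nuclease that frees hairpins from primary transcripts, had 6787, 4863 and 5667 counts in astrocyte EVs and 1847, 1525 and 1622 counts in NSC EVs (1.70, SE 0.51, edgeR adjusted p = 0.0701). These counts are raw, the astrocyte EV libraries had the larger table totals, and Drosha missed the threshold. Dis3l2, the exonuclease that degrades uridylated let-7 precursors, had a log2 fold change of 0.94 (edgeR adjusted p = 0.113), Mbnl1, an RNA-binding splicing factor, 0.22 (adjusted p = 0.789), and Zcchc6, a terminal uridylyltransferase, -1.62 (adjusted p = 0.199).

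Of 27 known targets, 26 were tested, and edgeR called 2 higher in astrocyte EVs (7.69%) and 0 lower. At an unadjusted p under 0.05, 6 were higher and 1 lower, beside the unadjusted counts of the alternative fit given above. E2f6, a transcriptional repressor of the E2F family, had 134, 167 and 225 counts in astrocyte EVs and 26, 33 and 38 counts in NSC EVs (log2 fold change 2.15, SE 0.39, edgeR adjusted p = 0.0214). Nr2e1, a nuclear receptor that keeps neural stem cells proliferating, had 178, 206 and 986 counts in astrocyte EVs and 60, 90 and 70 counts in NSC EVs (1.96, SE 0.38, edgeR adjusted p = 0.0239). These counts are raw, and the astrocyte EV libraries had the larger table totals. Both calls were lost without astrocyte EV replicate 1 (edgeR adjusted p = 0.0668 for E2f6 and 0.0655 for Nr2e1). The same held without astrocyte EV replicate 2 (edgeR adjusted p = 0.0776 for E2f6 and 0.0706 for Nr2e1). It also held without NSC EV replicate 3 (edgeR adjusted p = 0.0598 for E2f6 and 0.0799 for Nr2e1). The call of Nr2e1 was also lost without NSC EV replicate 1 (0.0563). Without TMM, which gave 738 higher and 3217 lower calls over all rows in place of 2290 and 1750, E2f6 (1.53, adjusted p = 0.112) and Nr2e1 (1.56, adjusted p = 0.145) were lost. The targets with the most counts did not pass: Igf1r, a growth factor receptor, with 2259, 3296 and 3324 counts in astrocyte EVs and 951, 1718 and 1158 counts in NSC EVs (adjusted p = 0.145), Igf2bp2, an RNA-binding protein, at 0.17 (adjusted p = 0.852), Cdk6, a cell cycle kinase, at 0.05 (adjusted p = 0.941), and Igf2bp3, a relative of Igf2bp2, at 1.02 (adjusted p = 0.0612). The median over the 26 tested was 0.24.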

How the data were processed

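Small RNA was sequenced from 3 astrocyte EV and 3 NSC EV libraries, grouped by the labels. The authors deposited whole-number counts per annotated row without normalization, 1 column per library, and 0 columns of per-sample values and 0 row identifiers were left unmatched or blank. The mm10 build and the tools Bowtie, Bowtie2, cutadapt, FastQC, bedtools, SAMtools and DESeq are in the submitters' processing notes, with no version or order. The handling of reads with several matches, the mismatches allowed and the use of strand are not given in the sources used here, and a read that matches several near-identical rows can raise each of them. Further deposited tables hold the authors' DESeq group means, log2 fold changes and adjusted p-values, and were not used.

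Mature rows (902) were tested without hairpin rows (788), which repeat their reads, with library sizes summed over mature rows. The test was edgeR's quasi-likelihood test (edgeR 4.0.16, limma 3.58.1, R 4.3.3, TMM, filterByExpr by group, group as the only term, Benjamini-Hochberg adjustment over 256 rows, calls at an adjusted p under 0.05). The SE is the log2 fold change divided by the root of F. The biological coefficient of variation was 0.581 (common dispersion 0.338). TMM factors ran from 0.796 to 1.16. Non-hairpin rows (41308 tested) were fitted in the same way. Shares and log2 ratios were compared by exact two-sided permutation tests, and 95% Wilson intervals cover counting error only, since reads without molecular identifiers are not independent molecules. The scripts were tested on simulated counts. DESeq2 1.42.0 was an alternative, beside other size factors and filters, other library sizes, the replicate number as a block and each library left out. Python 3.11.15 served for the other steps, with pandas 2.3.3, numpy 2.4.6, matplotlib 3.10.9 and scipy 1.17.1. Host genes came from GENCODE M21 and sequences from RefSeq (GRCm38.p6), which held all 9 members and all 9 passenger rows of the count table.

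All 9 members are named. Passenger arms, hairpins and listed cluster partners with at least 10 counts are given with values, with the 3p arms of the partner hairpins added after their values were seen, and from the processing and target lists those past the test and at most 4 with the most counts. In the target list 1 gene is not reported here and is left out of its counts. Members and lists were chosen with earlier results of these data known.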

Additional observations from a re-analysis of the deposited data

Results flagged for a closer look

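Hairpin rows that no mature row covers also held counts. The let-7j hairpin on chromosome 3 held 1978 counts over the 6 libraries, with 280, 295 and 482 in astrocyte EVs and 440, 260 and 221 in NSC EVs. The let-7k hairpin on chromosome 5 held 169 counts, with 18, 16 and 42 in astrocyte EVs and 31, 43 and 19 in NSC EVs. Both stand above the 3 counts that a count of 0 allows, and neither enters the comparisons of mature miRNAs. How many of these reads also match a member was not tested.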

How the results depend on the processing

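Let-7g-5p passed as lower in every fit of the mature rows. With the library size summed over all non-hairpin rows, which moved the median of all miRNAs by -0.86, 32 miRNAs were higher (57 as reported), and log2 fold changes were -0.22 for let-7a-5p, -0.15 for let-7b-5p and -0.66 for let-7i-5p, all on the other side of 0, 0.21 for let-7d-5p (adjusted p = 0.740), 0.98 for let-7e-5p (0.112) and -1.43 for let-7f-5p, which then passed (0.0283). A minimum of 10 counts gave 0.70 for let-7d-5p (0.0704), -0.94 for let-7f-5p (0.0327) and -0.017 for let-7i-5p. Without the low-count filter let-7d-5p (1.10, 0.152) and miR-98-5p (-0.81, 0.378) were lost. Let-7d-5p was also lost without TMM (0.87, 0.0501), and miR-98-5p with Let-7 left out of the scaling (-0.77, 0.0503), settings that moved the median of all miRNAs by -0.10 and 0.14. DESeq2 called let-7a-5p (0.52, 0.0463) and let-7f-5p (-0.69, 0.0221). Replicate numbers do not pair the libraries by the labels, and deviations of same-numbered libraries correlated at 0.06, 0.14 and 0.07. Those of differently numbered libraries correlated at -0.12 to 0.05, below all the same-numbered values. Whether the numbers pair cultures is unknown here. With the number as a block let-7d-5p (0.99, 0.0660) and miR-98-5p (-0.92, 0.0913) were lost, 45 miRNAs were higher and 55 lower, and non-hairpin calls were 668 higher and 577 lower, against 2290 and 1750 without the block. E2f6 (0.0591) and Nr2e1 (0.0609) were lost under the block. Without TMM the non-hairpin calls were 738 higher and 3217 lower.

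With each library left out, 34 to 69 miRNAs were higher (34 without NSC EV replicate 2) and 45 to 93 lower. Non-hairpin calls ran from 0 to 2786 higher and 0 to 1572 lower, with 0 and 0 by edgeR without astrocyte EV replicate 1 (5162 and 4723 at an unadjusted p under 0.05) or 2 (5149 and 4580), and 4 and 14 without NSC EV replicate 3. Log2 fold changes ran from 0.40 to 0.76 for let-7a-5p, 0.02 to 0.91 for let-7b-5p, -0.58 to 0.037 for let-7c-5p (0.0013 without astrocyte EV replicate 1), 0.85 to 1.18 for let-7d-5p, 1.62 to 1.89 for let-7e-5p, -0.74 to -0.49 for let-7f-5p, -0.47 to 0.95 for let-7i-5p (-0.16 without NSC EV replicate 2) and -1.02 to -0.77 for miR-98-5p. As shares of all mature counts, the differences were 0.693 points for let-7d-5p, 1.04 for let-7e-5p, -1.88 for let-7g-5p and -0.152 for miR-98-5p. From hairpin rows the share differences within the family were -2.38 points for let-7g-5p and -0.169 for miR-98-5p, since members with 2 hairpins then count at both. Every cluster ratio kept its sign, within -0.35 to -0.23 for miR-98-5p to let-7f-5p and 0.39 to 1.67 for the others. The cause of these shifts was not tested. Depth limits the passenger arms, of which 1 of 9 could be tested.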
